A study of Mus musculus with 6 samples.

Results

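The AP-1 and immediate early genes Fos, Fosb, Fosl1, Fosl2, Jun, Junb, Jund, Egr1, Atf3 and Ier2 were followed in RNA-seq gene counts of mouse primary osteoblasts, the cells that lay down bone matrix. These 10 genes were found by matching the 51912 Ensembl gene IDs of the count table to the symbols of GENCODE release M21, and all 10 had counts in every library. The 3 Mark3-KO libraries (genotype Mark3-/-) came from cells exposed to Cre adenovirus for 24 h, and the 3 WT libraries (genotype wild-type) from cells exposed to GFP adenovirus for 24 h. All cells were taken from the calvaria (skull cap) of Mark3 flox/flox C57BL/6J pups aged 1 d, grown with fetal bovine serum, so the WT cells also carried the floxed alleles and a virus, and the virus differed wherever the genotype did. Mark3 encodes a serine/threonine kinase that acts on microtubule-associated proteins. Whether replicate libraries stem from different cultures or animals is not stated in the labels, so the p-values reflect the variation among these 6 libraries, and that may be technical.

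AP-1 is a dimeric transcription factor. Jun proteins pair with each other or with Fos proteins through a leucine zipper, while Fos proteins need a partner to bind DNA. Immediate early genes are switched on within minutes of a growth factor, stress or mechanical signal, before new protein is made, and their mRNAs are short-lived. In bone, Fosl1 and Fosl2 (Fra-1 and Fra-2) promote matrix formation by osteoblasts, Junb supports osteoblast proliferation, and Fosb isoforms raise bone mass in transgenic mice. Egr1 and Ier2 are immediate early genes outside AP-1, and Atf3 encodes a stress-induced zipper protein that can pair with Jun proteins.

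The DNA just before the RefSeq start of these genes is shown for letters of known response elements. Of the 7 members with a RefSeq promoter, 4 held the core of the cyclic AMP response element. Each window covers the 150 bases before the RefSeq start on build GRCm38.p6, written 5′ to 3′ on the gene's strand. Capitals mark TGACG (or CGTCA, its reverse complement), the core of the cyclic AMP response element, and TGACATCA, a variant AP-1 site known from the Jun promoter.
Fos (chr12:85473740-85473889, plus strand): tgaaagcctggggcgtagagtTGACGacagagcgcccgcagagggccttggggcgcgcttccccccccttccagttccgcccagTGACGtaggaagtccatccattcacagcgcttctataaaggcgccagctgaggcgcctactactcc
Fosb (chr7:19310046-19310195, minus strand): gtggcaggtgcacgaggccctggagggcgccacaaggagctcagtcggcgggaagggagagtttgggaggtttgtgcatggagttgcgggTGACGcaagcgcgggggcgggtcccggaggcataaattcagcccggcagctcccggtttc
Jun (chr4:95052223-95052372, minus strand): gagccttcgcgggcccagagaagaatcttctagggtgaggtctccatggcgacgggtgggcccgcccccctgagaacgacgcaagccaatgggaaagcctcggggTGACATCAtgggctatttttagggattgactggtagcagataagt
Junb (chr8:84978749-84978898, minus strand): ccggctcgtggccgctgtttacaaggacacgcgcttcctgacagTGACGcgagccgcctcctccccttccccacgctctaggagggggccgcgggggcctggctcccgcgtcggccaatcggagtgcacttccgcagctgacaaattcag
Atf3 (chr1:191183334-191183483, minus strand): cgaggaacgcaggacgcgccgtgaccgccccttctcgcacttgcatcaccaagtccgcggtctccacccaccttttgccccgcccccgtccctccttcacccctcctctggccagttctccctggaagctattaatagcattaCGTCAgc
Fosl2 (chr5:32136322-32136471, plus strand): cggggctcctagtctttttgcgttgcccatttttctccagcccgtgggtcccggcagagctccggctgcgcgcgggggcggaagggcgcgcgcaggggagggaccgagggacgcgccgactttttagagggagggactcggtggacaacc
TGACG, searched on both strands, was in 4 of the 7 windows (Fos, Fosb, Junb and Atf3) and in 13.3% of all 32851 RefSeq promoter windows of 150 bases. TGACATCA was in 1 of 7 (Jun) and in 2.32% of all windows, also on both strands, and the motifs do not overlap. As TGACATCA is known from the Jun promoter, its presence there was given in advance. The first match lay 66 and 129 bases before the start of Fos, 60 before Fosb, 106 before Junb, 45 before Jun and 7 before Atf3. Fosl2 is shown because its lowest library was Mark3-KO replicate 2, whereas that of the other members was Mark3-KO replicate 3. Its window held neither motif. The RefSeq starts of Fosb, Fosl2 and Atf3 lie inside the gene spans given below, which are GENCODE's. Those of Junb and Jund lie upstream of their spans. The Jund window ends at 70697738, well before its span begins at 70698949, and is not shown for that reason. It also held neither motif. Fosl1, Egr1 and Ier2 have no window here.

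The 3 Mark3-KO libraries held 71445243, 56925883 and 59098701 counts, and the 3 WT libraries 63560939, 57154757 and 67044409. Mark3, the deleted gene, measured 47.6, 52.4 and 44.1 CPM (the usual count per unit of library size, with library sizes scaled by TMM) in Mark3-KO and 113, 118 and 118 CPM in WT. Mark3 had a log2 fold change of -1.27 (SE 0.10, edgeR adjusted p 0.0153), in the direction of the labels, although Mark3 RNA remained. Genes rich in G and C differed between the libraries. Among the 1897 tested genes with the highest GC content (above 57.2%), the median gene, set against its own mean over the 6 libraries, stood at a log2 ratio of -0.19, -0.69 and -0.98 in Mark3-KO and 1.12, 0.69 and 0.11 in WT. The mitochondrial share of counts was 2.07, 2.38 and 3.22% in Mark3-KO and 1.05, 1.42 and 1.66% in WT. The 9 osteoblast markers, led by Col1a2 and Col1a1, summed to between 13177 and 14971 CPM in Mark3-KO and between 18679 and 39077 CPM in WT. Col1a2 and Col1a1 made up most of these sums. Of the 9 log2 fold changes 8 were below 0, and 0 passed. Runx2, Sp7 and Ibsp overlapped between the groups (-0.30, -0.20 and -0.12). Alpl, Bglap and Bglap2 did not (-0.62, -1.71 and -1.62). Chondrocyte markers, led by Col2a1, also had lower sums (352 to 586 CPM in Mark3-KO, 674 to 1744 CPM in WT). On the log2 scale 5 of 5 were below 0, and 0 passed. With the correction for GC content described below, the log2 fold changes of Col1a2 and Col1a1 went from -0.74 and -1.74 to 0.19 and -0.34. Those of Col2a1 and Acan went from -1.52 and -0.15 to 0.21 and 0.6. Col9a1, Sox9 and Comp stayed lower, at -0.6, -0.4 and -0.45. Of the osteoblast markers, Sp7 and Alpl were then at 0.52 and 0.39. Runx2, Ibsp, Bglap and Bglap2 were at -0.12, -0.4, -0.83 and -0.73. The sums of 4 pericyte and smooth muscle markers were 1600 to 2616 CPM in Mark3-KO and 2862 to 3618 CPM in WT. Acta2 led them, with a log2 fold change of -0.64, and -0.53 with the GC correction. Sums of 5 skeletal muscle markers were 1.94 to 5.16 CPM in Mark3-KO and 7.35 to 14.0 CPM in WT. The sums of 7 macrophage and osteoclast markers overlapped (403 to 457 CPM in Mark3-KO, 370 to 423 CPM in WT), as did those of 5 endothelial markers (4.26 to 4.59 CPM in Mark3-KO, 4.17 to 4.52 CPM in WT). Single markers went both ways within these sums, none past the threshold. Without overlap between the groups, the log2 fold changes were 0.67 for Ptprc, 0.53 for Adgre1, 1.29 for Pecam1, 0.65 for the pericyte marker Rgs5 and 0.34 for the osteoblast marker Spp1, and -0.51 for Csf1r and -0.37 for Cd68. With the GC correction the values, in that order, were 0.14, 0.42, 1.45, 0.18, -0.03, 0.18 and 0.1. These markers were picked after their values were seen. Red blood cell markers stayed below 1 CPM in sum, and Elane and Cpa3 of the neutrophil and mast cell list had 0 counts. The part of GC content, mitochondrial share and other cell types in the results below was not tested beyond the GC correction given with them.

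All 10 members had a lower mean level in Mark3-KO than in WT, from 6.30% of the WT mean for Junb to 73.1% for Atf3, but none passed the threshold. The quasi-likelihood test of edgeR was adjusted by Benjamini-Hochberg over 19017 genes and read at a threshold of 0.05. It gave the members adjusted p-values from 0.0506 for Junb to 0.186 for Fos. The adjustment gives the value 0.0506 to many genes of unlike unadjusted p. Per1, described below, had it at an unadjusted edgeR p of 0.00112, and Junb at 0.00731. At an adjusted p below 0.1, 43.7% of all tested genes passed in either direction. Of all tested genes, 0.168% were called lower and 0.216% were called in either direction. At an unadjusted p below 0.05, 7 of 10 members were lower, where 24.8% of all tested genes were. The levels of the groups did not overlap for 5 members (Fosl1, Fosl2, Junb, Atf3 and Ier2), all lower in Mark3-KO, as for 27.5% of all tested genes. The median log2 fold change was -0.97 over the members and 0.02 over all tested genes, of which 48.9% were below 0. In bulk RNA, fewer cells of a type and less RNA per cell cannot be told apart.

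Whether members passed changed with the libraries used and with the tool. Without Mark3-KO replicate 1, 4 members were called lower (Junb, Egr1, Atf3 and Ier2), where 20% of all tested genes were. Without WT replicate 3, 6 were called lower (Fos, Fosl1, Jun, Junb, Jund and Ier2), again against 20%. No member passed when any one of the other 4 libraries was left out, where 0 to 0.0717% of all tested genes were called in either direction. The same held with limma-voom, which called 0.142% of all genes. The DESeq2 Wald test called 6 lower (Fosl1, Fosl2, Junb, Jund, Atf3 and Ier2), against 23.1% of all genes.

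**Figure D1:**
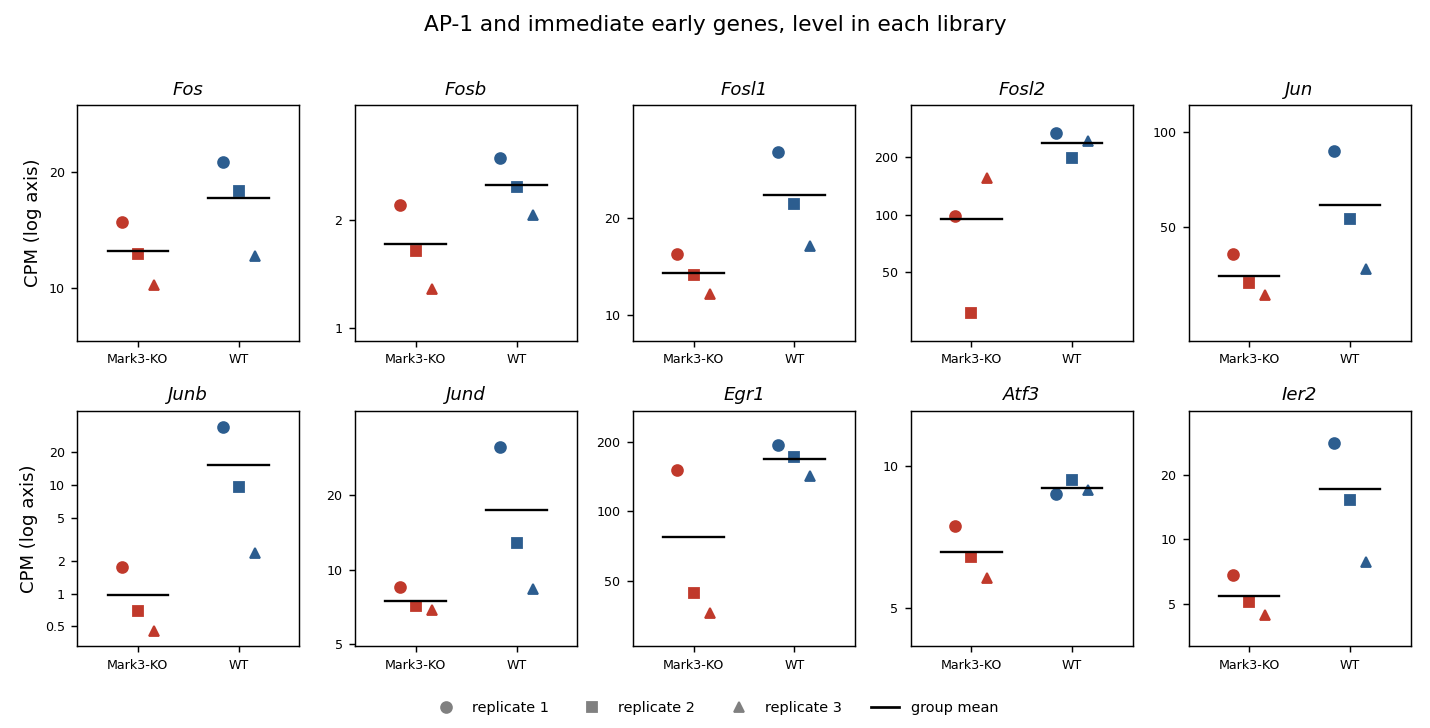
Level of each AP-1 and immediate early gene in CPM on a log axis scaled per panel, for the 3 Mark3-KO libraries (red, left) and the 3 WT libraries (blue, right), with marker shapes for the replicate and a bar for the group mean. WT replicate 1 is the highest library for 9 of the 10 genes, and Mark3-KO replicate 3 the lowest for 9 of the 10.

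Among the Jun proteins, which can bind DNA without a Fos partner, Junb differed most. Junb (chromosome 8, 84974484 to 84978718, 1 exon), a Jun protein that often opposes Jun at proliferation genes, measured 1.76, 0.688 and 0.456 CPM in Mark3-KO and 34.2, 9.51 and 2.38 CPM in WT. The groups did not overlap, but WT replicate 1 was 14.4 times as high as WT replicate 3, and WT replicate 3 lay close to Mark3-KO replicate 1. These levels rest on 130, 41 and 28 counts in Mark3-KO and 1996, 524 and 160 counts in WT. The lowest, 28 counts, has an exact 95% Poisson interval of 18.6 to 40.5, which covers counting error only. For Junb the log2 fold change came to -3.97 (SE 1.04, edgeR adjusted p 0.0506). It was -2.61 (adjusted p 0.151) without WT replicate 1. Junb shares 173 exon bases with Prdx2 on the opposite strand, at 115 ± 26.9 CPM in Mark3-KO and 192 ± 30.2 CPM in WT (SD, n = 3 each). The TruSeq RNA v2 kit named in the labels is one that does not mark strand, so reads of that stretch cannot be told apart.

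Jun (chromosome 4, 95049034 to 95052222, 1 exon), the founding AP-1 subunit, measured 40.8, 33.1 and 30.2 CPM in Mark3-KO and 86.9, 52.7 and 36.7 CPM in WT. The groups overlapped, since WT replicate 3 was below Mark3-KO replicate 1, and WT replicate 1 was the highest library. Jun had a log2 fold change of -0.76 (SE 0.31, edgeR adjusted p 0.105), and -0.37 without WT replicate 1. Jund (chromosome 8, 70698949 to 70700616, 1 exon), the Jun protein usually present in resting cells, measured 8.49, 7.12 and 6.82 CPM in Mark3-KO and 31.4, 12.8 and 8.36 CPM in WT. Here too WT replicate 3 fell just below Mark3-KO replicate 1, and the WT mean rested on WT replicate 1. Jund had a log2 fold change of -1.23 (SE 0.47, edgeR adjusted p 0.0894), and -0.50 without WT replicate 1. Jun shares 232 exon bases with Junos on the opposite strand, at 1.42 ± 0.314 CPM in Mark3-KO and 1.42 ± 0.261 CPM in WT (SD, n = 3 each). Jund shares 877 with the antisense gene Gm11175, which had 0 counts in all but WT replicate 1, where it had 4.

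Within the Fos proteins, Fosl2 had the highest CPM in every library, and it alone of the members did not have Mark3-KO replicate 3 as its lowest library. Per kb of the longest transcript, Fosl1 (7.12) and Fos (5.84) were above Fosl2 (4.68 CPM per kb) in Mark3-KO replicate 2. Fosl2 (chromosome 5, 32135801 to 32157842), which encodes Fra-2, measured 99.0, 30.6 and 155 CPM in Mark3-KO and 267, 198 and 244 CPM in WT. Every Mark3-KO library was below every WT library. Its highest Mark3-KO library was replicate 3, which was the lowest of all 6 libraries for the other 9 members. The highest Mark3-KO level of Fosl2 was 5.08 times the lowest, a spread of 5 or more that 1.91% of genes at 1 CPM or more showed in this group. Fosl2 had a log2 fold change of -1.31 (SE 0.52, edgeR adjusted p 0.0972), and between -1.87 and -0.90 with any library left out.

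Fosl1 (chromosome 19, 5447547 to 5455946), which encodes Fra-1, measured 15.5, 13.3 and 11.6 CPM in Mark3-KO and 32.0, 22.2 and 16.4 CPM in WT. The groups did not overlap, but the nearest libraries, Mark3-KO replicate 1 and WT replicate 3, differed by a ratio of 0.943. Fosl1 had a log2 fold change of -0.81 (SE 0.26, edgeR adjusted p 0.0613), and -0.52 without WT replicate 1. Fosl1 shares 1163 of its 2033 exon bases with Ccdc85b on the opposite strand. Ccdc85b had 2, 1 and 0 counts in Mark3-KO and 220, 40 and 3 counts in WT. The kit does not mark strand, so reads of that stretch cannot be told apart, and the effect on Fosl1 was not tested. Fos (chromosome 12, 85473890 to 85477273), the classic immediate early gene, measured 14.9, 12.3 and 10.2 CPM in Mark3-KO and 21.3, 17.9 and 12.1 CPM in WT. The groups overlapped, and WT replicate 3 lay below the upper 2 Mark3-KO libraries. Fos had a log2 fold change of -0.46 (SE 0.24, edgeR adjusted p 0.186), and -0.27 without WT replicate 1. Fosb (chromosome 7, 19302696 to 19310051) was the lowest of the family, at 2.21, 1.64 and 1.29 CPM in Mark3-KO and 3.0, 2.49 and 2.07 CPM in WT. Its groups overlapped at Mark3-KO replicate 1 and WT replicate 3 (log2 fold change -0.55, SE 0.26, edgeR adjusted p 0.144).

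Outside the Fos and Jun families, Egr1, a zinc finger transcription factor on chromosome 18, measured 151, 44.2 and 36.3 CPM in Mark3-KO and 194, 171 and 142 CPM in WT. Mark3-KO replicate 1 lay within the range of the WT libraries, while the other Mark3-KO libraries were far below every WT library. The log2 fold change of Egr1 was -1.13 (SE 0.54, edgeR adjusted p 0.145). Without Mark3-KO replicate 1 it was -2.07 (SE 0.18) and passed, with an adjusted p of 0.0172. Ier2 (chromosome 8, 84661331 to 84662852, 1 exon), a short-lived nuclear protein induced by growth factors, measured 6.78, 5.09 and 4.44 CPM in Mark3-KO and 28.2, 15.2 and 7.87 CPM in WT. No Mark3-KO library reached a WT library, and the libraries stood in the same order as for Junb. The log2 fold change of Ier2 was -1.65 (SE 0.45, edgeR adjusted p 0.0513), and -1.09 without WT replicate 1. Atf3 (chromosome 1, 191170296 to 191218039) varied least, at 7.46, 6.41 and 5.79 CPM in Mark3-KO and 8.71, 9.33 and 8.87 CPM in WT. Its WT libraries were within a ratio of 1.07 of each other and above every Mark3-KO library. Atf3 had a log2 fold change of -0.45 (SE 0.15, edgeR adjusted p 0.0625), between -0.56 and -0.38 with any library left out.

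Mark3-KO replicate 1 and WT replicate 3 were close for all members but Fosl2. Over all tested genes they were also the nearest across the groups on the main axis of variation, the first principal component (65.5% of the variance). They stood at 15.74 and -10.87 on it, the other Mark3-KO libraries at 60.25 and 83.85, and the other WT libraries at -90.24 and -58.73. The ratio of Mark3-KO replicate 1 to WT replicate 3 was 0.405 for Fosl2 and between 0.740 and 1.23 for the other 9, and above 1 for 5 of them. Within the WT group, the highest library was at least 3 times the lowest for Junb, Jund and Ier2, as for 4.01% of genes at 1 CPM or more. In Mark3-KO this held for Fosl2, Junb and Egr1, as for 4.25% of such genes. Together the 10 genes took 0.0358, 0.0162 and 0.0273% of all counts in Mark3-KO, and 0.0648, 0.0492 and 0.0481% in WT. Fosl2 and Egr1 held most of these counts in every library but Mark3-KO replicate 2 (16396 and 9516 of 32272 in WT replicate 3). The shares of the groups did not overlap, although the levels of 5 members did. The sum was not set against sums of other genes.

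Per kb of the longest transcript, Egr1 and Fosl2 had the highest means in both groups, and in WT the highest level in every library. In Mark3-KO, Egr1 averaged 17.2 ± 14.2, Fosl2 14.5 ± 9.56, Jun 10.9 ± 1.72 and Fosl1 7.22 ± 1.04 CPM per kb (SD, n = 3). In WT, Egr1 averaged 37.7 ± 5.81, Fosl2 36.1 ± 5.38, Jun 18.4 ± 8.04 and Fosl1 12.6 ± 4.23 CPM per kb (SD, n = 3). The means of Egr1 and Fosl2 did not differ beyond their spread in either group. Egr1 was above Fosl2 in replicates 1 and 2 of both groups and below it in replicate 3. In WT the means of Jun and Fosl1 were also within the spread. Yet Jun was above Fosl1 in every WT library (27.25, 16.51 and 11.51 against 17.18, 11.89 and 8.80 CPM per kb). Jun was within the spread of Egr1 and Fosl2 in Mark3-KO. The Mark3-KO mean of Egr1 rested on replicate 1, at 33.6 CPM per kb, while replicates 2 and 3 had 9.86 and 8.09 CPM per kb, below the 10.4 and 9.48 CPM per kb of Jun. Fosb had the lowest mean in both groups, at 0.453 ± 0.124 CPM per kb in Mark3-KO and 0.666 ± 0.123 CPM per kb in WT (SD, n = 3 each). In Mark3-KO it did not differ from Junb (0.536 ± 0.386 CPM per kb) beyond the spread, and Junb was the lower of the pair in replicates 2 and 3. Over the union of annotated exons, which is longer for Fosl2, Fosl2 averaged 9.81 CPM per kb in Mark3-KO, below Jun, and 24.4 in WT, above Jun.

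The make-up of the families differed in Junb. Of the length-scaled sum of Jun, Junb and Jund, Junb made up 5.17, 2.53 and 1.82% in Mark3-KO and 29.1, 17.9 and 7.39% in WT. Jun made up 67.9, 69.1 and 68.6% in Mark3-KO and 41.9, 56.1 and 64.5% in WT. These shares did not overlap between the groups, whereas Jund kept 27.0, 28.4 and 29.6% in Mark3-KO and 29.0, 26.0 and 28.1% in WT. The whole Jun sum was 18.9, 15.0 and 13.8 CPM per kb in Mark3-KO and 65.0, 29.4 and 17.8 CPM per kb in WT, and the groups overlapped. In the Fos sum, Fosl2 made up 48.7, 25.9 and 67.6% in Mark3-KO and 59.2, 59.0 and 71.2% in WT, which overlapped. The shares were not tested, and they carry the GC differences of the libraries.

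**Figure D2:**
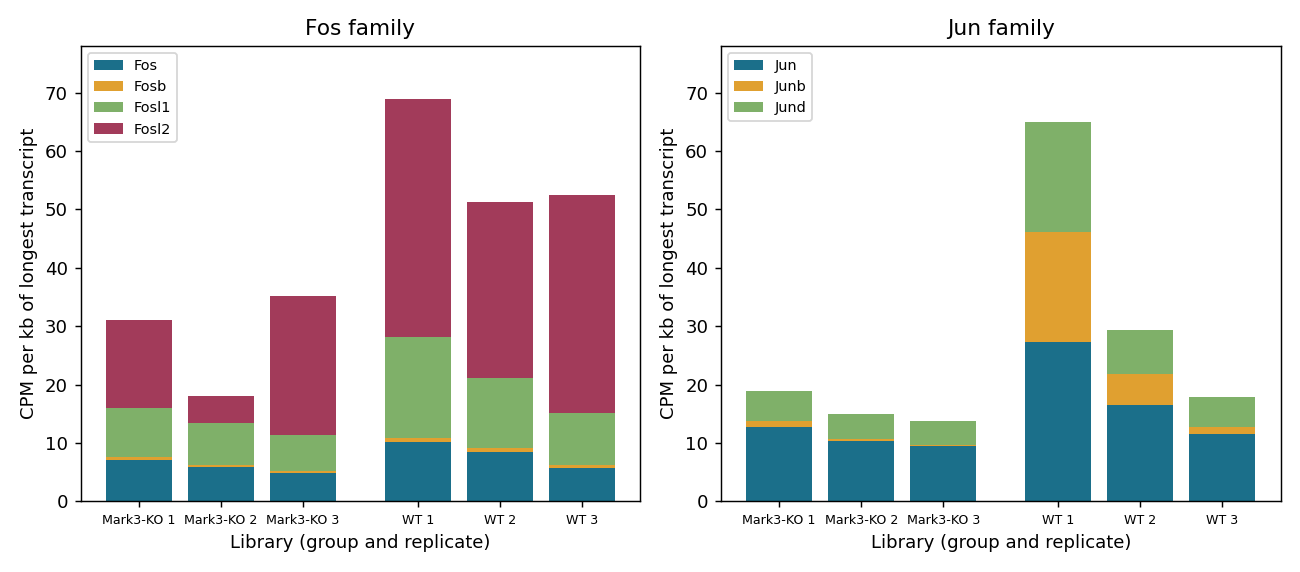
Levels of the Fos family (left panel) and the Jun family (right panel) per library in CPM per kb of the longest transcript, stacked by gene, with the 3 Mark3-KO libraries left of the 3 WT libraries. The Junb part is thin in every Mark3-KO library and thickest in WT replicate 1, and Mark3-KO replicate 2 has the least Fosl2.

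The members are richer in G and C than most tested genes, a property the choice of genes did not use. Transcript GC content ran from 51.9% for Fos to 67.1% for Jund, and 7 of 10 members were above the 80th percentile of tested genes. Jun, Junb, Jund and Ier2 have 1 exon. When all tested genes were cut into 10 equal bins of GC content, the median log2 fold change was -1.29 in the richest bin, which held Fosl1, Junb, Jund, Egr1 and Ier2. Jund (-1.23) and Egr1 (-1.13) were near that median. Junb was far below it, with 0.7% of the genes of that bin lower still. Fosl2, in a bin with a median of -0.49, had 7.4% of genes below it.

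**Figure D3:**
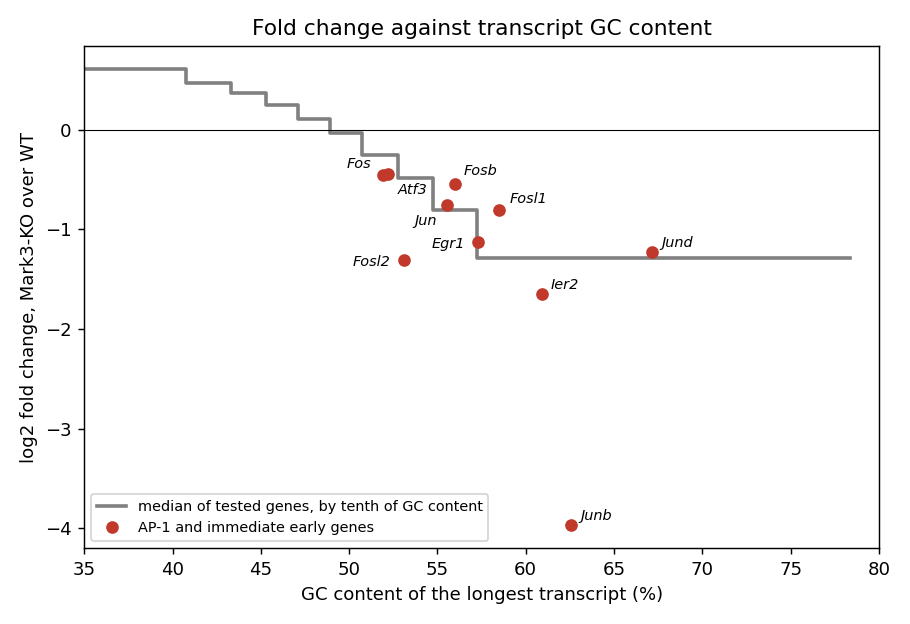
Log2 fold change of Mark3-KO over WT against the GC content of the longest transcript, for the 10 members (points), with the median of tested genes in each of 10 bins of GC content (grey steps). Most members lie within 1 log2 unit of the grey line, while Junb, at -3.97, lies far below the richest bin's -1.29.

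A correction for GC content, fitted per library, turned the sign of 5 members. It removes any difference that follows GC content, whatever its source. Jund had GC-corrected log2 levels of 3.50, 3.99 and 4.27 in Mark3-KO and 2.90, 2.58 and 3.19 in WT. Mark3-KO was higher by this measure (log2 fold change 1.03, SE 0.23, edgeR adjusted p 0.0947). Jund and Junb lie at percentiles 99.9 and 99.1 of GC content among tested genes, where few genes guide the correction. Fosl1 likewise went to 0.49 (adjusted p 0.0947) and Fosb to 0.35 (0.157). Jun, at 0.15, and Ier2, at 0.01, were within about 1 SE of 0. Junb stayed lower, with corrected log2 levels of 1.14, 0.47 and 0.24 in Mark3-KO and 3.53, 2.34 and 1.23 in WT. With the correction Junb was at -2.01 on the log2 scale (SE 0.60, edgeR adjusted p 0.110). Fosl2 was at -0.79 (SE 0.55, adjusted p 0.393), and Egr1, Fos and Atf3 were at -0.19, -0.11 and -0.08. No member passed, and 0.353% of all genes did. At an unadjusted p below 0.05, 3 members were higher and 1 lower, where 15.9% and 11.6% of all genes were. The median of the members was -0.03 after the correction, against 0.06 over all genes.

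**Figure D4:**
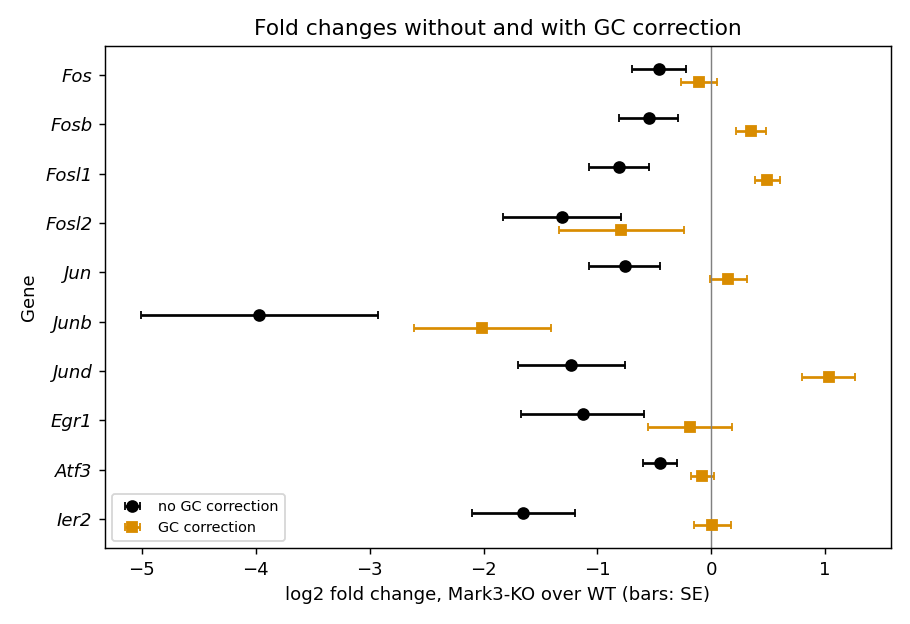
Log2 fold change of Mark3-KO over WT for each gene with its SE, without GC correction (black circles) and with it (orange squares), from edgeR's quasi-likelihood fit. All 10 values are below 0 without the correction, and 5 are above 0 with it.

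The rest of the pathway was read from 5 lists with 96 genes in all, of which 93 were tested. None passed in edgeR's quasi-likelihood test or with limma-voom, while 11 were higher and 32 lower at an unadjusted p below 0.05, against 20.8% and 24.8% of all genes. With the correction for GC content 17 were higher and 14 lower, against 15.9% and 11.6%, and the median log2 fold change was 0.02, against -0.25 without it. The DESeq2 Wald test called 9 higher and 30 lower, against 15.5% and 23.1%. The groups did not overlap for 13 that were higher and 37 that were lower, against 25.8% and 27.5%. From each list, the genes named below are the 3 with the smallest unadjusted p in edgeR's test, at a mean of 1 CPM or more. Their small p-values and separated groups follow in part from that choice.

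Upstream of AP-1 are the mitogen-activated protein kinases and the factors they switch on. Of 20 tested, 4 were higher and 9 lower at an unadjusted p below 0.05, against 20.8% and 24.8% of all genes. Their median log2 fold change was -0.16. After the GC correction 3 were higher and 3 lower (median 0.06), against 15.9% and 11.6% of all genes. Map2k2, which encodes the kinase MEK2 of the ERK pathway, measured 19.1, 10.5 and 6.51 CPM in Mark3-KO and 105, 59.7 and 26.7 CPM in WT. The groups did not overlap (log2 fold change -2.40, SE 0.59, edgeR adjusted p 0.0506), and the value was -0.87 after the GC correction. Srf, the serum response factor that binds immediate early promoters, measured 35.1, 23.1 and 17.2 CPM in Mark3-KO and 83.6, 60.6 and 43.0 CPM in WT. Its log2 fold change of -1.31 (SE 0.33, edgeR adjusted p 0.0506) turned to 0.47 after the GC correction. Map2k4, an activator of the Jun kinases, was on the higher side, at 134 ± 10.9 CPM in Mark3-KO and 99.1 ± 10.5 CPM in WT (SD, n = 3 each; log2 fold change 0.44, edgeR adjusted p 0.0506, and 0.16 after the GC correction).

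Genes of zipper proteins that pair with or oppose Fos and Jun had a median log2 fold change of -0.28. At an unadjusted p below 0.05, 1 of 9 tested was higher and 2 lower, against 20.8% and 24.8% of all genes. After the GC correction 2 were higher and 1 lower (median 0.16), against 15.9% and 11.6% of all genes. Jdp2, a repressor that dimerises with Jun proteins, measured 22.7, 15.2 and 7.87 CPM in Mark3-KO and 70.7, 50.1 and 28.5 CPM in WT. The groups did not overlap (log2 fold change -1.71, SE 0.46, edgeR adjusted p 0.0509), and the value was -0.68 after the GC correction. Mafk, a small Maf protein, averaged 6.90 ± 1.53 CPM in Mark3-KO and 14.9 ± 4.18 CPM in WT (SD, n = 3 each). Atf2, a Jun partner at cyclic AMP response elements, averaged 84.5 ± 8.55 CPM in Mark3-KO and 58.7 ± 6.41 CPM in WT (SD, n = 3 each). With the GC correction Mafk was at -0.14 and Atf2 at 0.03.

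Other immediate early genes had a median of -0.35. Of 24 tested, 0 were higher and 9 lower at an unadjusted p below 0.05, against 20.8% and 24.8% of all genes. After the GC correction 6 were higher and 2 lower (median 0.02), against 15.9% and 11.6% of all genes. Per1, a clock gene induced by serum, measured 7.61, 8.19 and 5.78 CPM in Mark3-KO and 30.3, 22.4 and 14.1 CPM in WT. Its groups did not overlap (log2 fold change -1.63, SE 0.30, edgeR adjusted p 0.0506). Socs3, a feedback inhibitor of cytokine receptors, averaged 7.47 ± 0.912 CPM in Mark3-KO and 14.7 ± 3.88 CPM in WT, and Csrnp1 averaged 1.53 ± 0.632 CPM and 4.93 ± 1.67 CPM (SD, n = 3 each). After the GC correction, Per1 was at -0.20, Socs3 at 0.33 and Csrnp1 at -0.64.

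Feedback regulators of the pathway had a median of -0.24. Of 19, 4 were higher and 4 lower at an unadjusted p below 0.05, against 20.8% and 24.8% of all genes. Corrected for GC content, 6 were higher and 1 lower (median 0.13), against 15.9% and 11.6% of all genes. Nab2, a repressor that binds Egr1, measured 32.1, 17.4 and 12.0 CPM in Mark3-KO and 64.0, 68.2 and 46.3 CPM in WT, without overlap (log2 fold change -1.54, SE 0.37, edgeR adjusted p 0.0506; -0.22 after the GC correction). Nab2 shares 1050 exon bases with an antisense gene. Errfi1, an inhibitor of the EGF receptor, averaged 244 ± 14.3 CPM in Mark3-KO and 182 ± 20.6 CPM in WT, and Zfp36l2, which promotes decay of mRNAs with AU-rich elements, 247 ± 33.7 CPM and 183 ± 14.4 CPM (SD, n = 3 each). Their log2 fold changes were both 0.43 (edgeR adjusted p 0.0506 and 0.0537), and 0.34 and 1.2 with the GC correction.

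Genes known as AP-1 targets had a median of -0.26. At an unadjusted p below 0.05, 2 of 21 were higher and 8 lower, against 20.8% and 24.8% of all genes. Corrected for GC content, 0 were higher and 7 lower (median -0.10), against 15.9% and 11.6% of all genes. The membrane metalloproteinase gene Mmp14 averaged 369 ± 48.4 CPM in Mark3-KO and 594 ± 76.1 CPM in WT (SD, n = 3 each), and its log2 fold change was -0.69 (edgeR adjusted p 0.0506), and -0.01 with the GC correction. Haem oxygenase 1 (Hmox1) averaged 150 ± 33.9 CPM in Mark3-KO and 274 ± 54.8 CPM in WT (-0.87, and -0.35 with the correction). Mgp, the matrix Gla protein that restrains mineralisation, averaged 56.1 ± 9.39 CPM in Mark3-KO and 90.7 ± 16.4 CPM in WT (SD, n = 3 each). The log2 fold change of Mgp was -0.69 (edgeR adjusted p 0.0506), close to the -0.62 found with the correction.

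**Figure D5:**
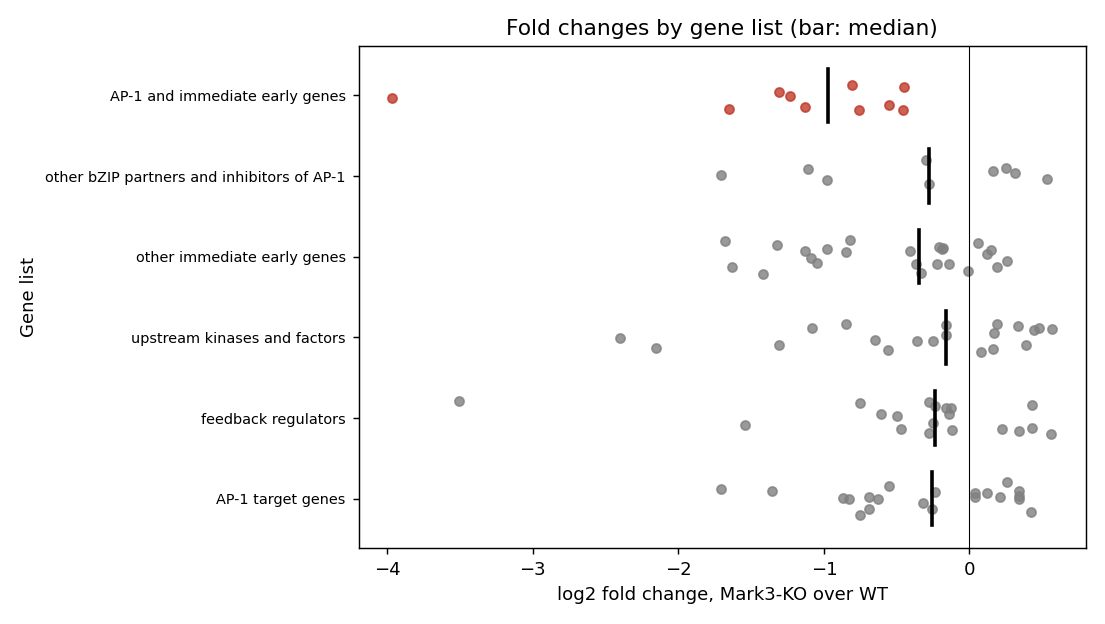
Log2 fold change of Mark3-KO over WT for each tested gene (points, spread vertically at random within a list) of the AP-1 and immediate early genes (red) and 5 related lists (grey), with a bar at each median. The medians of the related lists lie between -0.35 and -0.16, and that of the AP-1 and immediate early genes at -0.97.

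The pattern of Junb over the libraries was shared by many genes. Junb had the widest range of the members, 6.14 log2 units over the 6 libraries. Among 10275 other protein-coding genes at 5 CPM or more, 2204 had a Pearson r above 0.95 with Junb over the 6 libraries, on log2 CPM. Impa2, Rplp1, Anxa11 and Ccdc9 were among the most alike, with r of 0.9997 or more. All of these values come from the same 6 libraries and share their depth and GC differences. Of these 4 genes only the ribosomal stalk protein gene Rplp1 had a range near that of Junb (4.6 log2 units), at 124, 65.8 and 48.0 CPM in Mark3-KO and 1164, 472 and 158 CPM in WT. Impa2, Anxa11 and Ccdc9 ranged over 1.16 to 1.84 log2 units.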

How the data were processed

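The authors deposited 1 table of whole-number counts per gene for 6 libraries, with no normalization. The tools named are HISAT2 2.0.5, DESeq2, FastQC and StringTie, with build GRCm38, per the submitters' processing notes. Their order and settings, and the handling of reads shared by overlapping genes, are not given in the sources used here. Of 51912 gene IDs, 51719 matched GENCODE M21. Libraries were made with the TruSeq RNA v2 kit, per the labels' protocols, a kit that does not mark strand.

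Genes were kept with filterByExpr (19017 tested), scaled with TMM and tested with edgeR 4.0.16 (R 4.3.3), Mark3-KO over WT, with Benjamini-Hochberg adjustment over all tested genes and a threshold of 0.05. SE is the size of the log2 fold change divided by the root of the F statistic. Log2 levels use a prior count of 2. The GC correction enters a natural spline (6 df) per library as an offset. DESeq2 1.42.0, limma-voom (limma 3.58.1), other scalings and filters, left-out libraries and a replicate block were alternatives. The fit was tested on simulated data. Depth (56925883 to 71445243 counts per library) leaves genes with few counts, such as Junb in Mark3-KO, the least precise. Promoters are RefSeq's, build GRCm38.p6.

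The members and lists were chosen with earlier results of these data known. Named genes are the members, Mark3, per list the 3 genes with the smallest p at a mean of 1 CPM or more, and the 5 genes most correlated with the widest-ranging member, of which 1 is not reported here. Genes overlapping a member were named for that overlap.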

Additional observations from a re-analysis of the deposited data

How the results depend on the processing

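The log2 fold change of every member kept its sign under all alternatives without a GC correction. With the GC correction 5 turned, Jund to 1.03, Fosl1 to 0.49, Fosb to 0.35, Jun to 0.15 and Ier2 to 0.01, and with the GC correction and a replicate block together the same 5 were at 1.02, 0.48, 0.35, 0.18 and 0.02. The cause was not tested. In the edgeR fit 0 members passed, and 7 were lower at an unadjusted p below 0.05, as were 24.8% of all tested genes. With library size alone 2 were called lower, against 12.2% of all tested genes. The DESeq2 Wald test called 6 lower, against 23.1%, and a filter of 1 CPM 2, against 21.3%. At an adjusted p below 0.1, 6 were lower, against 24.0%. With the GC correction and replicate block 2 passed. Of these, Junb was lower (-1.88, edgeR adjusted p 0.0368), as were 4.87% of all tested genes. Jund was higher (edgeR adjusted p 0.0448), as were 4.23%. With 1 library left out 0 to 6 were called lower, against 0 to 20%. Of all tested genes, 41 passed, against 4510 with library size alone, 6915 by DESeq2's Wald test, 27 by limma-voom, 5266 with a filter of 1 CPM, 67 with the GC correction, 1725 with the GC correction and replicate block, 8317 at an adjusted p below 0.1, 0 with WT replicate 1 and Mark3-KO replicate 3 both left out (3258 at an unadjusted p below 0.05), and 0 to 6460 with 1 library left out. Pathway list genes past the threshold, 0 in the edgeR fit, numbered 24 with library size alone, 39 with the DESeq2 Wald test, 32 with a filter of 1 CPM, 12 with the GC correction and replicate block, 43 at an adjusted p below 0.1, and 0 to 37 with 1 library left out.

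With the replicate number as a block, 9 members (all lower, as were 24.7% of all tested genes), 47 pathway list genes and 8487 of all tested genes passed. The labels do not tie equal numbers to a shared source. Deviations from the group means correlated at 0.329, -0.032 and 0.292 between libraries numbered 1, 2 and 3, so the numbers were not taken to pair the libraries, and not every library correlated best with its own number. With library size alone the all-gene median of the log2 fold changes was 0.13, against 0.02 with TMM. Depth limits Junb and Fosb, with 28 to 130 and 79 to 163 counts per Mark3-KO library. The share of counts taken by the members moved by less than the spread between replicates when the 20 highest genes left the denominator in all libraries but WT replicate 1 (0.0760% against 0.0648%).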
